A study of Rattus norvegicus with 10 samples.

Results

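Methyl-capture of rat hippocampal DNA gave 574544 regions with tag counts, and 690 of them were short and held very many tags. These 690 regions lay on autosomes, were under 2000 bp long and had a mean raw count of at least 50 over the 8 libraries that the labels do not mark as discarded. They were thus selected on mean count and length, and their high counts are a description and not a finding. The mean was taken over control and SE rats together. A region near the limit could therefore enter through the group where it is high. The control mean was under 50 in 45 members, 5 of the hypermethylated ones among them, and the SE mean was under 50 in 48 members, 10 of the hypomethylated ones among them. The regions carry no gene names in the table, and coordinates are those of the rat genome build RN4. None of the 24 amygdala stimulation regions that the study lists with genes overlapped one of them.

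In vertebrate DNA, methyl groups sit mostly on cytosines that are followed by a guanine, and proteins with a methyl-CpG binding domain recognize these sites. Methyl-capture uses such a protein to pull methylated fragments out of sheared DNA. The number of tags in a region therefore rises with the number of methylated CpG sites in it, and it does not give the methylation level of a single cytosine. In the hippocampus, CA3 pyramidal cells and dentate granule cells form part of the circuit that is reorganized after status epilepticus (SE), with cell loss, gliosis and sprouting of axons.

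The libraries came from adult male Sprague-Dawley rats, 1 library per rat, of the focal amygdala stimulation model of epilepsy. All rats carried a bipolar electrode in the left lateral amygdala together with skull screw electrodes. SE rats received trains of electrical pulses through the amygdala electrode to evoke SE, which was later stopped with diazepam, and controls were age-matched and sham operated, with electrodes but without stimulation. Tissue with CA3 and dentate gyrus of the left hippocampus was taken 3 months after SE. Spontaneous seizures were seen in every stimulated rat that entered the study, according to its methods. The tissue holds many cell types, so a shift in the mixture of cells and a change of methylation within cells cannot be told apart. Control rats 1, 3, 4 and 5 and SE rats 6, 8, 9 and 10 were compared, and control rat 2 and SE rat 7, which the labels mark as discarded, were set beside them. Total counts were 5499370 to 7179519 in the 8 libraries used, 7154696 in control rat 2 and 14655629 in SE rat 7.

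The short, high-count regions had a median length of 1343.5 bp, with a range from 289 to 1999 bp. Their mean counts ranged from 50 to 3807 with a median of 74.9. Per kb of length they held a median of 63.8 counts, against 20.9 counts per kb over all 291987 regions that passed the filter on low counts and were tested. All 690 passed that filter. The whole table holds 569536 short autosomal regions, of which 12951 had a mean count of 25 to under 50. Another 864 autosomal regions reached a mean count of 50 with a length of 2000 bp or more. The threshold cuts through a continuous range of counts. At the lower end 6 members had a mean count of exactly 50, among them chr13:70275998-70276550 and chr14:15503925-15505220, and the regions just under the limit, chr17:53461903-53463087 and chr16:20615101-20616025, were at 49.875. The longest members were chr4:68981-70980 with 1999 bp and chr18:38714533-38716531 with 1998 bp.

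**Figure D1:**
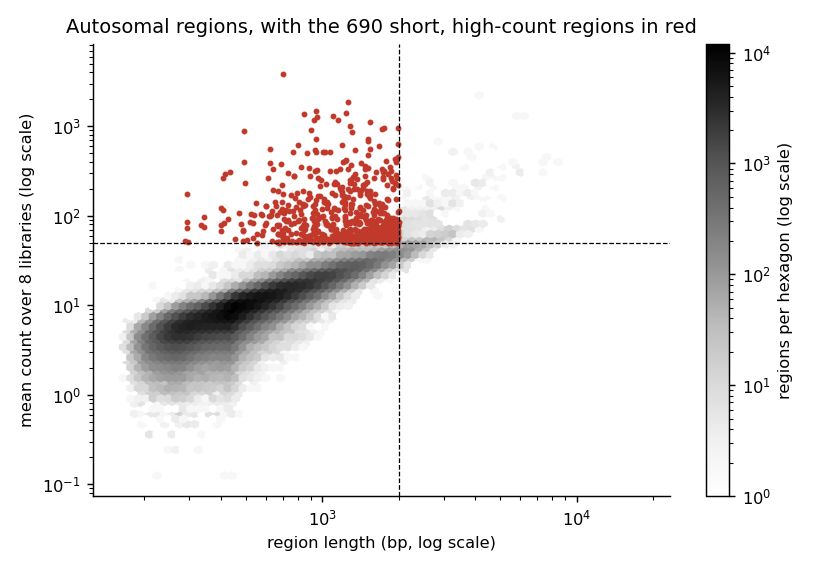
Length of each autosomal region in bp against its mean count over the 8 libraries used, both on log scales. Grey hexagons give the number of regions and red points are the 690 short, high-count regions, which lie left of the line at 2000 bp and above the line at a mean count of 50.

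These regions were not spread evenly over the genome. Chromosome 16 held 131 of them, which is 19.0% of the members against 3.59% of the tested autosomal regions. Chromosome 1 followed with 61, chromosome 2 with 57, chromosome 14 with 54 and chromosome 17 with 52, and chromosome 11 held the fewest with 7. The first Mb of the span that the table covers on each chromosome held 55 members (7.97%), against 0.441% of the tested autosomal regions. In the last Mb the shares were 1.16% and 0.521%. Members often lay beside each other. When neighbours less than 100 kb apart were joined, the 690 members fell into 340 blocks, of which 251 held a single member. The other 89 blocks held 439 members, and 12 blocks of at least 7 members held 206 of them. At the same time the surroundings held few regions. Within 50 kb of a member the table had a median of 20 regions, against 33 for all tested regions.

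The spread of counts between rats was small in relative terms. Counts were scaled to a common library size (CPM), relative to the TMM-scaled sum over the tested regions. The median within-group SD of log2 CPM was 0.214 over the members and 0.458 over all tested regions. Counting error alone gives a coefficient of variation of 11.6% at the members' median and 28.7% over all tested regions, and the fitted biological coefficient of variation was 13.3% and 19.8%. The fitted biological variation was thus lower in the members. Set against counting error, which is relatively smaller at high counts, their spread was nevertheless larger. The chi-square of the counts within groups was 1.92 per degree of freedom in the median member and 1.30 in the median tested region, and 34 members had a value over 10. Among all 291987 tested regions 139 had such a value.

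The steadiest members were those with the smallest within-group SD. At chr7:592623-593330 the control rats had 10.9, 11.9, 11.6 and 11.4 CPM and the SE rats 11.1, 12.2, 12.1 and 11.7 CPM. At chr13:27824346-27826281 control rats had 53.2, 55.4, 54.8 and 55.2 CPM and SE rats 54.8, 49.7, 53.3 and 50.8 CPM. The groups overlapped in both regions, and the rats of a group lay within a few CPM of each other. The other 2 regions of this kind, chr16:27477189-27478431 with control 97.7 ± 2.52 and SE 93.3 ± 3.69 CPM and chr16:38628661-38630456 with control 21.7 ± 0.972 and SE 20.2 ± 0.452 CPM (SD, n = 4), lay on chromosome 16.

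The members with the largest within-group spread differed several-fold between rats of the same group. At chr10:83448924-83450595 control rat 3 had 27.7 CPM and control rat 5 had 3.31 CPM, while control rats 1 and 4 had 16.2 and 14.7 CPM and the SE rats 13.4 to 18.5 CPM. At chr1:70731609-70733563 control rat 4 had 32.3 CPM against 6.18 to 14.7 CPM in the other controls, and SE rat 9 had 4.83 CPM against 10.3 to 15.5 CPM in the other SE rats. The remaining regions with the largest spread, chr17:85368537-85369628 and chr17:85441694-85443250, belonged to 1 block and followed the same order at their ends. SE rat 10 was highest in both, with 29.2 and 39.5 CPM, and control rat 4 lowest, with 5.69 and 4.4 CPM.

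Between the groups the short, high-count regions were lower in SE rats more often than higher. Of the 690 members, 76 (11%) were hypomethylated and 10 (1.45%) hypermethylated in SE rats at an unadjusted p below 0.01 in the quasi-likelihood F test of edgeR. Over all tested regions 1.07% were called hypomethylated and 0.584% hypermethylated. With offsets that remove the dependence of each library on count level and on local region density, the split was 26 hypomethylated and 50 hypermethylated. With TMM factors from the members alone it was 25 and 44, but these factors centre the members' own changes near 0 by construction. With offsets on count level alone it was 47 and 38, with library totals 71 and 14 and with upper-quartile factors 66 and 14. Over all tested regions these fits called 1.23%, 2.12%, 1.59%, 1.63% and 1.61% in this order, in either direction. Among these scalings, the direction of the split turned with the offsets on density and with the factors from the members. With both kinds of offsets the median over all tested regions stayed at 0.00. The dependence on local density differed between the libraries. The slope of a library's deviation in log2 CPM from the average library against log2(density + 1) was 0.0248, -0.0639, -0.125 and -0.0904 in control rats 1, 3, 4 and 5. In SE rats 6, 8, 9 and 10 it was 0.0494, 0.0247, 0.0823 and 0.0985. A negative slope means relatively more tags where few regions lie near. The slope was negative in control rats 3, 4 and 5 only, and that of control rat 1 was near that of SE rat 8. Whether the slopes bear on the members' counts was not tested. An effect of the libraries and an effect of SE cannot be told apart here.

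The log2 fold changes of the members were small. Their median was -0.13, with quartiles of -0.29 and 0.02 and a range from -1.39 to 1.06, and the median over all tested regions was 0.00. With offsets on count level and density the members' median was -0.0097. TMM factors from the members alone centre it near 0 by construction, at 0.013, and all tested regions then had a median of 0.14. A negative sign was found in 498 members (72.2%), against 49.7% of all tested regions. It was found in 354 members with offsets on count level and density and in 327 with TMM factors from the members alone. The median standard error of a log2 fold change was 0.17 in the members and 0.35 over all tested regions. The 76 hypomethylated members had a median absolute log2 fold change of 0.47, whereas all hypomethylated regions had 1.06. The smallest change that was called in a member was 0.30. Every SE rat lay below every control rat in 85 members (12.3%) and above in 5 (0.725%). Over all tested regions these shares were 1.94% and 1.69%. With offsets on count level and density 43 members lay below and 38 above in this way, and with TMM factors from the members alone 30 and 23. The shares over all tested regions under these scalings are not given here.

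**Figure D2:**
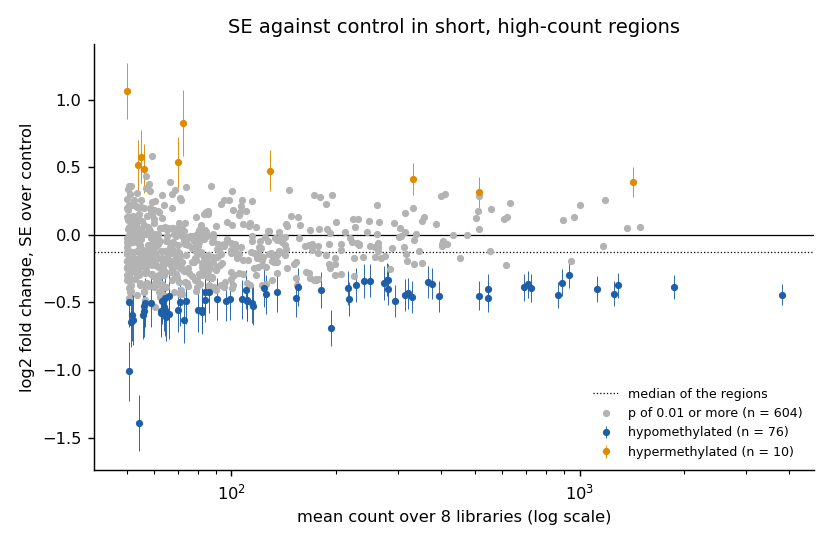
Log2 fold change of SE over control rats against the mean count over 8 libraries (log scale) for the 690 short, high-count regions, with standard errors for the 86 regions with an unadjusted p below 0.01. With TMM over all tested regions 498 points lie below 0, and the dotted line marks the median of the 690 regions at -0.13. TMM factors from these regions alone, which centre it near 0 by construction, gave 0.013.

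With p adjusted by Benjamini-Hochberg over the whole fit, 4 members were below 0.05 in the edgeR test, 3 of them hypomethylated and 1 hypermethylated. Over all tested regions 0.00616% reached it, which were 18 regions. The hypomethylated member with the smallest p was chr15:97123790-97125104. Control rats 1, 3, 4 and 5 had 53, 98, 87 and 71 tags there, and SE rats 6, 8, 9 and 10 had 30, 17, 47 and 31. The groups did not overlap, as the SE rat with the most tags stayed below the control rat with the fewest. Its normalized count was 18.6 ± 5.65 CPM in control and 7.07 ± 3.09 CPM in SE rats (SD, n = 4). The log2 fold change was -1.39 (standard error 0.21, edgeR adjusted p = 7.22e-05). It remained called at an unadjusted p below 0.01 in all 18 alternative fits, with log2 fold changes from -1.69 to -1.21. The fit with all 10 libraries was 1 of these and gave -1.32. The mean count of this member was 77.25 in control and 31.25 in SE rats, so that it passed the limit of 50 through the control rats.

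The region with the highest mean count of the 690, chr1:145514500-145515200, held 4109, 3871, 4132 and 5039 tags in the control rats and 3489, 3402, 2791 and 3626 in the SE rats. It is 700 bp long, so that it held 5439 counts per kb. In CPM the control rats were between 957 and 1069 and the SE rats between 674 and 817, without overlap. The log2 fold change was -0.44 (standard error 0.08, edgeR adjusted p = 0.0033). With offsets on count level it was -0.11, and with offsets on count level and density it was 0.086. With all 10 libraries it was -0.19 (edgeR unadjusted p = 0.613). SE rat 7, which was not used, had 11858 tags there, more than any other library. Control rat 2 had 2654, fewer than any other library. Tags of 36 bp that overlap the region can start at 1470 positions, counting both strands, and the count of each of the 8 libraries was above that number. The study's methods state that duplicate tags were removed, and whether tags were extended before counting is not given in the sources used here. In the 8 libraries used, only 1 other region of the table had a count above its number of start positions. At chr2:191223285-191223780, with 1060 positions, this was so in control rat 5 with 1372 tags. The libraries left out were not part of this comparison, and SE rat 7 had 4373 tags in that region. In 30 members the mean count exceeded 25% of the start positions, and the median was 3.10% over the members and 0.988% over the tested regions.

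The third hypomethylated member past the adjusted threshold was chr6:14717652-14718834. Its CPM values were 47.9, 49.2, 58.2 and 64.7 in control rats and 30.1, 38.9, 37.9 and 30.0 in SE rats. The groups were separate, and the log2 fold change was -0.69 (standard error 0.13, edgeR adjusted p = 0.0295). SE rat 7, which was not used, had 892 tags there, more than any other library, and with all 10 libraries the log2 fold change was -0.16.

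The next 3 hypomethylated members in order of p did not reach the adjusted threshold. At chr3:148550866-148551824 control rats had 278, 307, 357 and 391 CPM and SE rats 241, 248, 255 and 242 CPM (log2 fold change -0.43, standard error 0.09). At chr6:93667527-93668833 they had 195, 226, 237 and 263 CPM in control and 160, 184, 165 and 168 CPM in SE rats (log2 fold change -0.44, standard error 0.10). In both regions every SE rat lay below every control rat and control rat 5 was the highest. With offsets on count level and density each had a log2 fold change of -0.20 and no p below 0.01. At chr9:717249-718955 the groups overlapped. Control rats 3 and 4 had 23.5 and 23.3 CPM there, whereas control rats 1 and 5 had 10.4 and 7.44 CPM and the SE rats 6.24 to 9.74 CPM. The log2 fold change of -1.01 (standard error 0.22) at this region thus rests on 2 of the 4 controls, and with the DESeq2 Wald test it had no p below 0.01. Its mean count was 50.75, just over the limit on mean count, so that this member passed the limit through the control rats.

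The hypermethylated member that passed the adjusted threshold was chr3:166999914-167001282. Control rats 1, 3, 4 and 5 had 51, 15, 33 and 26 tags and SE rats 63, 75, 65 and 74. The SE rats were close together and above all control rats, among which control rat 1 was the highest. The log2 fold change was 1.06 (standard error 0.21, edgeR adjusted p = 0.0363). SE rat 7 had 0 tags in this region, which allows up to 3, and control rat 2 had 57. With all 10 libraries the log2 fold change was 0.57, with no p below 0.01. The mean count was 31.25 in control and 69.25 in SE rats, so that this member passed the limit of 50 through the SE rats.

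Of the next 5 hypermethylated members in order of p, 4 had groups that overlapped. At chr13:108741601-108742838 control rat 3 had 159 CPM, while control rats 1, 4 and 5 had 351, 306 and 310 CPM and the SE rats 350 to 394 CPM. The log2 fold change was 0.39 (standard error 0.11). It was 0.20 without control rat 3 and then had no p below 0.01, which was also missed in edgeR's exact test and with DESeq2. At chr17:85441694-85443250, named above for its spread, the log2 fold change was 0.83 (standard error 0.24), and at chr2:252702984-252704909 it was 0.58 (standard error 0.20). In the latter the control rats ranged from 6 to 15.0 CPM and the SE rats from 11.5 to 19.1 CPM. Single rats moved both values. The former was 0.26 without SE rat 10, 0.57 without control rat 4 and 0.65 without control rat 5, with no p below 0.01, and 1.33 without control rat 1. The latter was 0.38 without control rat 5 and 0.44 without SE rat 10, and it also missed the threshold without control rat 3 or SE rat 9. Both missed it with DESeq2 and with all 10 libraries. At chr2:252702984-252704909 the control rats had 62, 38, 40 and 29 tags and the SE rats 51, 48, 73 and 100. Its mean count was 55.125, and this member passed the limit on mean count through the SE rats.

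The remaining pair of these lay in 1 block on chromosome 4. At chr4:75838224-75839700 control rats had 58.7, 68.5, 72.4 and 61.2 CPM and SE rats 72.6, 89.8, 77.0 and 107 CPM. The groups did not overlap, though SE rat 6 and control rat 4 nearly met, and the log2 fold change was 0.41 (standard error 0.12). At chr4:75830742-75831346 control rats had 19.6, 25, 24.6 and 29.0 CPM and SE rats 24.7, 33.8, 36.5 and 41.4 CPM (log2 fold change 0.48, standard error 0.15). SE rat 6 was here within the range of the controls. Without SE rat 10 these values were 0.30 and 0.37, with no p below 0.01, and the latter region also missed it without control rat 1. SE rat 7 differed between these neighbours, with 54 tags in the former and 487 in the latter.

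**Figure D3:**
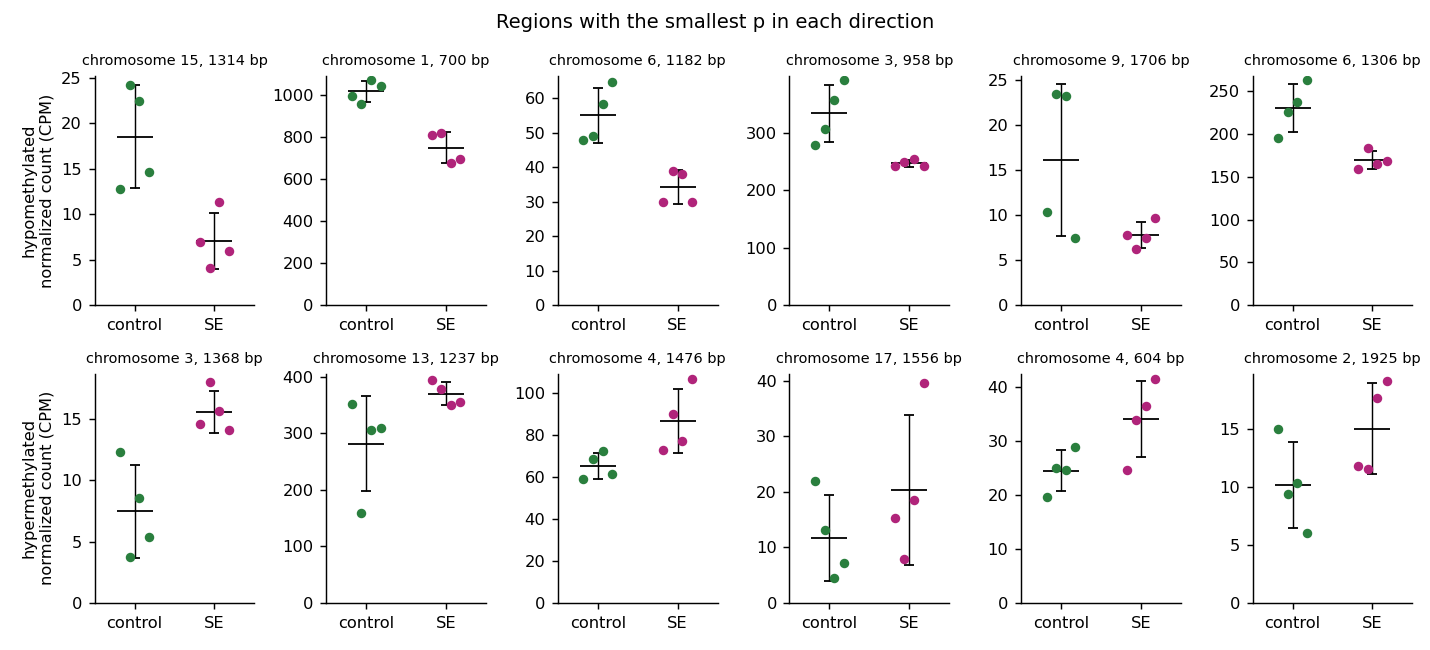
Normalized counts in CPM of the 4 control and 4 SE rats in the 6 hypomethylated (upper row) and 6 hypermethylated regions (lower row) with the smallest p, with points for rats and bars for mean ± SD. The groups are separate in 5 of the regions of the upper row and in 2 of the lower row.

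The members with the most counts per kb were called most often. When the members were divided by counts per kb into 4 groups of like size, 13, 10, 14 and 39 were hypomethylated from the lowest group to the highest, in which they made up 22.5%. Only the highest group stood out, and hypermethylated members numbered 4, 1, 1 and 4. Among the 42 members with a mean count of at least 400, 14 were hypomethylated and 2 hypermethylated. The standard error also fell along this order, from a median of 0.18 in the lowest to 0.12 in the highest group, while the median log2 fold change was -0.14, -0.16, -0.12 and -0.09. Length showed less of a gradient, with 3 of 26 members under 500 bp, 24 of 165 from 500 to under 1000 bp, 25 of 235 from 1000 to under 1500 bp and 24 of 264 of 1500 bp or more hypomethylated.

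The members with the highest counts did not move together. Besides chr1:145514500-145515200, the region chr3:143742-145007 had a mean count of 1869 and was hypomethylated. Its control rats had 407, 482, 543 and 525 CPM and its SE rats 400, 374, 371 and 353 CPM (log2 fold change -0.38, standard error 0.09). At chr2:191223285-191223780 the control rats had 196, 197, 241 and 284 CPM and the SE rats 163, 182, 187 and 186 CPM (log2 fold change -0.36, standard error 0.10). In each of these the highest SE rat lay just below the lowest control rat. The latter was -0.23 without control rat 5, with no p below 0.01, and with offsets on count level and density neither had a p below 0.01 in the same direction. In contrast, chr14:56506668-56507613 with a mean count of 1494.5 had 336, 335, 318 and 358 CPM in control rats and 355, 357, 363 and 329 CPM in SE rats. The groups overlapped there, and the log2 fold change was 0.06 (standard error 0.09). At chr5:2704023-2704872 the groups overlapped as well, with 254 to 358 CPM in control and 302 to 336 CPM in SE rats and a log2 fold change near 0 at 0.05 (standard error 0.09).

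Hypomethylated members were found on 16 of the 20 autosomes, with 9 on chromosome 16 and 8 on chromosome 1. They lay in 63 blocks, and the 10 hypermethylated members in 8 other blocks. Members that stood alone were called hypomethylated in 43 of 251 cases (17.1%), and members with neighbours in 33 of 439 (7.52%). The latter had more negative signs, 341 of 439 against 157 of 251.

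The largest block, chr16:27210291-28014826, spanned 805 kb and held 84 members. Only 3 of them were called hypomethylated, but 73 had a negative log2 fold change, with a median of -0.12. Summed over the block, control rats 1, 3, 4 and 5 had 3542, 3865, 4094 and 3987 CPM and SE rats 6, 8, 9 and 10 had 3546, 3532, 3562 and 3423 CPM. Control rat 1 was at the level of the SE rats, and the other controls were above all of them. Permuting the rats exactly (two-sided) gave p = 0.0857 (adjusted p = 0.129 over the 12 blocks of at least 7 members). The SE rats had a mean of 3516 ± 62.8 CPM and the controls of 3872 ± 239 CPM (SD, n = 4).

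**Figure D4:**
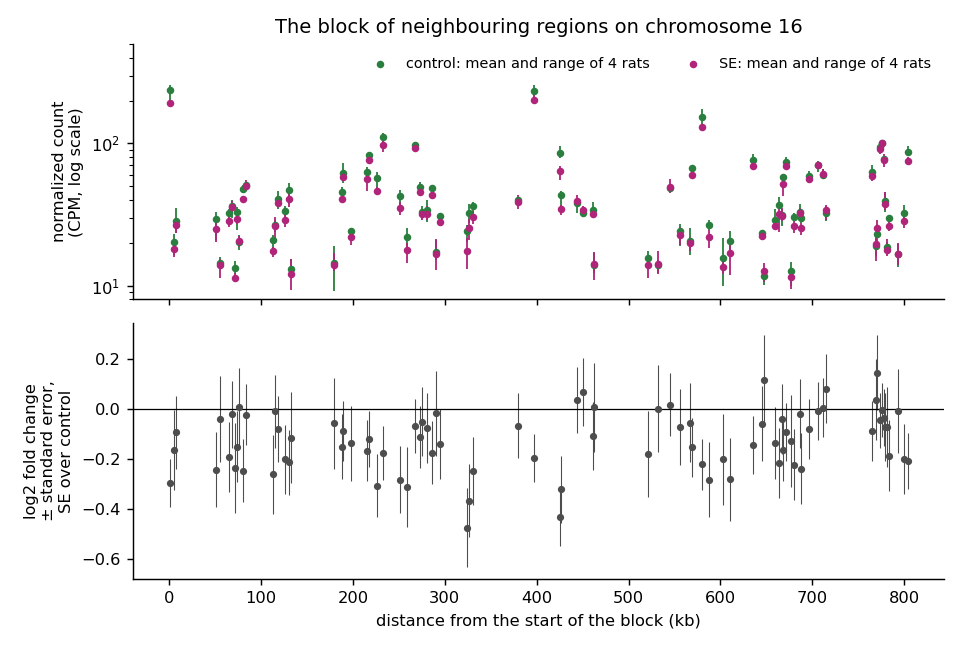
The 84 short, high-count regions of the largest block on chromosome 16, by distance from its start in kb. The upper panel gives the mean and range of normalized counts (CPM, log scale) in 4 control and 4 SE rats, and the lower panel the log2 fold change with its standard error, which is below 0 in 73 regions.

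Among the 12 blocks of at least 7 members, the summed counts were lower in SE rats in 10, and the groups did not overlap in 5. These 5 all had the smallest p that 4 rats against 4 allow, 0.0286 in the exact permutation test, with an adjusted p of 0.0686 over the 12 blocks. The block with the largest decrease of these was chr18:38706223-38799762, in which all 9 members had a negative sign. Its control rats had 186, 201, 227 and 258 CPM and its SE rats 164, 182, 175 and 147 CPM. At the start of the span of chromosome 4, the 8 members of chr4:78-80823 summed to 136 ± 10.3 CPM in control and 109 ± 11.8 CPM in SE rats. In chr17:53455564-53792044 with 19 members the sums were 315 ± 16.6 and 276 ± 5.59 CPM, and in chr2:1093829-1246741 with 9 members 235 ± 15.8 and 203 ± 9.22 CPM (SD, n = 4). The block chr4:75830742-75902873 went the other way, from 419 ± 19.0 to 487 ± 53.6 CPM (SD, n = 4), and 3 of its 8 members were hypermethylated. SE rat 10 had 566 CPM there, above the 445 to 469 CPM of the other SE rats. In the block chr14:4305582-4621897 with 22 members, control rat 4 with 635 CPM and SE rat 8 with 310 CPM stood apart from the other rats, which ranged from 419 to 524 CPM.

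Taking the members as a whole, their share of a library's counts was lower in SE rats. Control rats 1, 3, 4 and 5 had 1.64%, 1.74%, 1.84% and 1.77% of their counts in the 690 regions, and SE rats 6, 8, 9 and 10 had 1.62%, 1.64%, 1.62% and 1.62%. The SE rats were nearly equal, and control rat 1 lay only just above SE rat 8. The means were 1.75 ± 0.0843% and 1.62 ± 0.0105% (SD, n = 4), and the exact two-sided permutation test gave p = 0.0286, the smallest value possible, with an adjusted p of 0.0914 over 8 measures. Without the largest block the groups overlapped, with 1.47 ± 0.0703% and 1.37 ± 0.0112% (SD, n = 4, exact permutation p = 0.0571, adjusted p = 0.0914).

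The libraries left out fell outside the range of their groups. Control rat 2 had 1.30% of its counts in the members (95% Wilson interval 1.29% to 1.31%) and SE rat 7 had 1.49% (1.48% to 1.49%), both below all 8 libraries used. The intervals cover counting error only. In 70 of the 76 hypomethylated members control rat 2 lay below every SE rat used, and in 75 below every other control rat. Over all 690 members these counts were 447 and 468. SE rat 7 lay above every control rat used in 34 of the 76 and below every other SE rat in 22, and over all members in 106 and 507. It had 0 counts in 12 members and under 10 counts in 126, whereas no other library had under 10 counts in a member. With all 10 libraries the groups did not overlap in 1 member, 1 was hypomethylated and 0 were hypermethylated at an unadjusted p below 0.01 in edgeR, and 1 and 4 were at a p below 0.05. Over all tested regions 0.497% were called at a p below 0.01 in that fit, and the share without overlap is not given here. The median log2 fold change of the members was then -0.22.

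**Figure D5:**
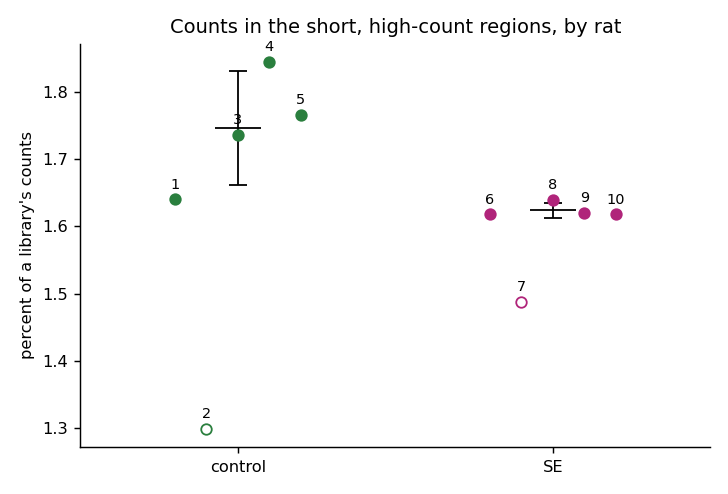
Percent of each library's counts that lie in the 690 short, high-count regions, for control and SE rats labelled by rat number, with mean ± SD of the 4 rats used. Open circles are control rat 2 and SE rat 7, which lie below the other rats at 1.30% and 1.49%.

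The wide regions with as many counts gave a nearby comparison. Of the 864 autosomal regions of 2000 bp or more with a mean count of at least 50, 87 (10.1%) were hypomethylated and 15 (1.74%) hypermethylated, with a median log2 fold change of -0.04. Their share of the counts was 3.27 ± 0.165% in control and 2.99 ± 0.0736% in SE rats (SD, n = 4, exact permutation p = 0.0571, adjusted p = 0.0914). The ratio of counts in the short to those in the wide regions overlapped between the groups, with 0.533 ± 0.00441 in control and 0.544 ± 0.0140 in SE rats (SD, n = 4, exact permutation p = 0.2, adjusted p = 0.2). Of the 12951 short regions with a mean count of 25 to under 50, 120 (0.927%) were hypomethylated and 155 (1.20%) hypermethylated, with a median log2 fold change of 0.06. The ratio of the members' counts to theirs was 0.277 ± 0.0181 in control and 0.245 ± 0.00721 in SE rats, with an overlap of the groups (SD, n = 4, exact permutation p = 0.0571, adjusted p = 0.0914).

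The first principal component of the members' log2 CPM held 31.5% of the variance over the 8 libraries. It placed control rats 1, 3, 4 and 5 at -0.85, 2.37, 5.88 and 5.75 and SE rats 6, 8, 9 and 10 at -3.09, -1.54, -3.54 and -4.98. All SE rats lay below all controls, with control rat 1 nearest to them (exact two-sided permutation test, p = 0.0286, the smallest possible). When all 10 libraries entered, it accounted for 88.5% of the variance. SE rat 7 was then at -68.5 and the other rats between 0.42 and 11.6.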

How the data were processed

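The authors aligned 36 bp single reads to RN4 with BWA, merged regions called different by MACS between any pair of libraries with BEDTools, removed duplicate tags and deposited raw tag counts per region without normalization. Everything else was computed here. Regions whose sum over the 8 libraries fell below the 50th percentile were removed, and the other 291987 were tested with edgeR (version 4.0.16, R 4.3.3; TMM, quasi-likelihood F test, two-sided, condition only), at the study's unadjusted p below 0.01, with Benjamini-Hochberg adjustment over all tested regions. Standard errors are the fold change over the square root of F. Density is the number of regions within 50 kb. The members and the lists were chosen with earlier results of these data known. Named were the members with the 6 smallest p per direction, the 4 highest counts, the 4 most counts per kb, the 4 largest and 4 smallest spreads, and those at the limits. Each rat gave 1 library, whose depth was 5499370 to 7179519 counts. Every pair of libraries differed over the members by more than counting error (chi-square per degree of freedom of at least 2.16). Alternatives were edgeR's exact test, DESeq2 (version 1.42.0), other scalings, filters, limits of the rule and sets of rats, and 1 member per block, which was added after seeing the data. An RN4 genome and annotation were not used here, so genes and sequences of the regions are not given.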

Additional observations from a re-analysis of the deposited data

Results flagged for a closer look

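In 4 of 80 groups of 4 rats that were examined, the highest or lowest rat lay past the 95% limit of Dixon's gap test, and chance flags about 1 in 20. SE rat 8 had 1.639% of its counts in the members, above the 1.62% of each of the other SE rats. At chr16:38628661-38630456 control rat 3 had 20.3 CPM, below the 22.0 to 22.3 CPM of the other control rats. In the block on chromosome 14 from 4305582 control rat 4 had 635 CPM in sum, above the other controls, and SE rat 8 had 310 CPM, below the other SE rats.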

How the results depend on the processing

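The 10 hypermethylated and 76 hypomethylated members, the 4 with an adjusted p below 0.05, the 90 without overlap of the groups and the median log2 fold change of -0.13 depended on scaling, on single rats and on the libraries left out. TMM factors from the members alone centre the members' changes near 0 by construction. They gave 44 hypermethylated and 25 hypomethylated members, 53 without overlap and a median of 0.013, of the opposite sign. Offsets on count level gave 38, 47 and 9 with an adjusted p below 0.05, and offsets on count level and local density gave 50, 26 and 12 with a median of -0.0097. Of the 76 hypomethylated members 24 remained called under the latter and 45 under the former. The edgeR exact test gave 6 hypermethylated and 53 hypomethylated members and 2 with an adjusted p below 0.05. It called 1.44% of all tested regions, and 19 of them passed the adjustment. DESeq2 gave 3 and 54 with 0.488% called, against 1.65% with the quasi-likelihood test. Library totals gave 14 and 71, and upper-quartile factors 14 and 66. With at least 10 counts in every library only 70434 regions were tested. Of these, 56 passed the adjustment, 13 members among them. That fit called 9 members hypermethylated and 99 hypomethylated, and 2.01% of all its tested regions. With all 10 libraries there were 0 hypermethylated and 1 hypomethylated members and 0 with an adjusted p below 0.05 in edgeR (4 and 1 at an unadjusted p below 0.05), 1 without overlap, and a median of -0.22. That fit called 0.497% of all tested regions. The cause was not tested.

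Leaving out 1 rat at a time gave 5 to 15 hypermethylated and 42 to 99 hypomethylated members, 1 to 22 with an adjusted p below 0.05 and 103 to 172 without overlap. These fits called 1.33% to 2.01% of all tested regions, and 9 to 81 regions passed the adjustment. Groups of 3 and 4 rats separate more easily than 4 against 4. The counts without overlap can therefore not be compared directly with the count from all 8 rats. The shares without overlap over all tested regions in these fits are not given here. These counts can therefore not be read as particular to the members. Without control rat 1 there were 22 with an adjusted p below 0.05 and 172 without overlap, and without control rat 5 there were 42 hypomethylated and 5 hypermethylated members. Without SE rat 8 there were 143 without overlap. The hypermethylated count was 6 without SE rat 9 and 5 without SE rat 10. The count past the adjustment was 2 without control rat 3, 4 or 5 or SE rat 6, and 1 without SE rat 9 or 10.

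A minimum mean count of 40 gave 1371 regions with 93 hypomethylated, 4 with an adjusted p below 0.05 and a median of -0.066. A minimum of 100 gave 235 regions with 43 hypomethylated. With 1 member per block, 340 were left and 4 had an adjusted p below 0.05.

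The share of counts in the members was lower in SE rats by 0.123 percentage points. The difference was -0.0604 with all 10 libraries (exact permutation p = 0.563), -0.158 to -0.0901 with 1 rat left out, where 3 rats against 4 cannot go below p = 0.0571, -0.0841 for mean counts of at least 100, -0.0459 for lengths below 1000 bp and -0.0772 with 1 member per block. The sign of the log2 fold change turned at chr1:145514500-145515200 to 0.086 and at chr3:143742-145007 to 0.072 under offsets on count level and density, at chr3:143742-145007 to 0.087 and at chr2:191223285-191223780 to 0.16 with all 10 libraries, and at chr5:2704023-2704872 to -0.031 without control rat 5, where leaving out the other rats gave up to 0.12. No paired analysis was possible because no rat number occurs in both groups.

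Counting error gave a coefficient of variation of 11.6% in the median member and the fitted biological one was 13.3%.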
